A study of Mus musculus with 16 samples.

Results

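The transcripts described here came from 7 genes of the heart muscle cell that are known to respond to stretch: *Fhl1*, *Fhl2*, *Enah*, *Ankrd1*, *Nrap*, *Xirp1* and *Xirp2*. They were chosen by symbol, with earlier results of these data known, so counts of members that passed are a description. For each symbol the probe set of highest mean over the 16 arrays was taken. Every symbol had 1 probe set that no other gene shared, so this choice by level left out no probe set. The 7 belong to 19938 genes with a probe set of 1 symbol, of which 13670 passed a filter on low values (a mean log2 value above 4.37), and all 7 passed it.

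Hearts of 16 male C57BL/6 mice were profiled on Affymetrix arrays, 1 array per mouse. The 4 groups were *Zbtb17* cKO mice after transverse aortic constriction (cKO TAC), *Zbtb17* cKO mice after a sham operation (cKO sham), control mice after TAC (control TAC) and control mice after a sham operation (control sham), with 4 mice in each. TAC puts a constricting band on the aortic arch, so that the left ventricle pumps against a raised pressure. *Zbtb17* encodes the zinc finger transcription factor Miz1, and cKO stands for a conditional knockout. All mice were 8 to 10 weeks old before surgery, and 4 weeks passed between surgery and sampling. The allele, the promoter that drove the recombinase, the exact genotype of the controls and the chambers taken are not given in the sources used here. The values are log2 values as deposited, so a difference of 1 is a doubling of the signal.

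A heart muscle cell senses load at several places, and 3 of them are described here. At the Z-disc, thin filaments of neighbouring sarcomeres meet and titin is anchored. Along the I-band, the elastic part of titin lengthens with the sarcomere. At the intercalated disc, myofibrils pull on the next cell through actin and adherens junctions. Fhl1 and Fhl2 are LIM domain proteins bound to titin, and Fhl1 takes part in passing stretch to the mitogen-activated protein kinase pathway in the mouse heart. Ankrd1 is an ankyrin repeat protein that binds titin's elastic part and also enters the nucleus, where it acts as a transcriptional cofactor. *Enah* encodes Mena, which promotes the lengthening of actin filaments. Nrap links actin to the junctions at the ends of myofibrils, and Xirp1 and Xirp2 are Xin repeat proteins that bind actin at the intercalated disc. In rodents *Ankrd1* is known as a gene that mechanical load induces.

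On GRCm38.p6 the annotated genes lie at chrX:56731209-56793346 for *Fhl1* (probe set 10599736), chr1:43123071-43198343 for *Fhl2* (10354247), chr1:181896384-182027556 for *Enah* (10360764) and chr19:36111965-36119844 for *Ankrd1* (10467191). *Nrap* lies at chr19:56320037-56390062 (10468593), *Xirp1* at chr9:120013755-120023598 (10597764) and *Xirp2* at chr2:67446000-67526620 (10472426). *Fhl2* and *Enah* share chromosome 1, and *Ankrd1* and *Nrap* share chromosome 19, far apart in both cases. Several of these genes varied together between mice, as shown further on, and the 250 bases before their transcription starts were read from RefSeq's GRCm38.p6 annotation and searched on both strands for 5 motifs of muscle and stretch-responsive promoters. RefSeq windows were at hand for 6 of the 7 genes, 8 windows in all, with 2 each for *Fhl1* and *Fhl2* and none for *Xirp1*. The windows of *Fhl1*, *Fhl2* and *Enah* lie inside the annotated span of the gene, so the outermost starts of these genes were not searched. The motifs were the M-CAT element CATTCC (bound by TEAD factors), the CArG box (bound by SRF), the MEF2 box, a GATA element AGATAA and a TATA element TATAAA. The 5 windows with a match are shown 5′ to 3′ on the strand of the gene, with matches in capitals, because they show how the promoters of co-varying genes differ. They are *Ankrd1* at chr19:36119845-36120094 (minus strand), *Xirp2* at chr2:67445752-67446001 (plus strand), the first window of *Fhl1* at chrX:56779433-56779682 (plus strand), and the first and second windows of *Fhl2* at chr1:43196762-43197011 and chr1:43163962-43164211 (minus strand).
Ankrd1: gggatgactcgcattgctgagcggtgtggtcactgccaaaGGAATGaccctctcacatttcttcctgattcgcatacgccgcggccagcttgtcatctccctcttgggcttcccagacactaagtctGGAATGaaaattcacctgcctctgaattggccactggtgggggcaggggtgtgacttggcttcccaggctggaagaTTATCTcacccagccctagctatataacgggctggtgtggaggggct
Xirp2: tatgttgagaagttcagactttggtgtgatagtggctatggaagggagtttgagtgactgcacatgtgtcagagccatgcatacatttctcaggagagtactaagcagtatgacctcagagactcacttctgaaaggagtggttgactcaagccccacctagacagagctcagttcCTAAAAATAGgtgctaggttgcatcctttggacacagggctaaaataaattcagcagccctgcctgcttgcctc
Fhl1, first window: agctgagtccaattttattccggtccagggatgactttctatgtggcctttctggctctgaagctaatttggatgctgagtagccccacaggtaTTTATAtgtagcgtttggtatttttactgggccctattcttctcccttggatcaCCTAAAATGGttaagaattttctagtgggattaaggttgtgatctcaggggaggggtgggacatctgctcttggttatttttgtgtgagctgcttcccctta
Fhl2, first window: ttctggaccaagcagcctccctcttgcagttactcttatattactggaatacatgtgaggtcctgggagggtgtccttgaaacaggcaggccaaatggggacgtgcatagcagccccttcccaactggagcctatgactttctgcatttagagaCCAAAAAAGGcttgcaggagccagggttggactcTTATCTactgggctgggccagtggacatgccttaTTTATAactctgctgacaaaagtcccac
Fhl2, second window: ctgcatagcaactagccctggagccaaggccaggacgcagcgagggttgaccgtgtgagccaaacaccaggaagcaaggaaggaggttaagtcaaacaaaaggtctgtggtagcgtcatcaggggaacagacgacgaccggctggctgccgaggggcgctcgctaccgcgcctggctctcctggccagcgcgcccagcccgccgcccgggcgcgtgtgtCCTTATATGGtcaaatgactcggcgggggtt

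*Ankrd1* had 2 M-CAT matches, 210 to 205 and 123 to 118 bases before the start, and a GATA match 47 to 42 bases before it, all on the reverse strand. *Xirp2* had a MEF2 box match 74 to 65 bases before the start. CArG box matches stood 102 to 93 bases before the start in the first *Fhl1* window, 96 to 87 in the first *Fhl2* window and 31 to 22 in the second. The first *Fhl1* window also had a TATA match and the first *Fhl2* window a GATA and a TATA match, and no 2 matches overlapped. The second *Fhl1* window and those of *Enah* and *Nrap* held none of the 5 motifs. Of 32851 windows of this length, 12.6% held the M-CAT element, 1.47% a CArG box, 1.69% a MEF2 box, 9.99% the GATA element and 12.4% the TATA element. No motif was common to the searched windows of the genes that varied together, and a match in letters is not evidence of binding.

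All arrays had similar distributions, with medians of 4.85 to 4.97. Ventricular muscle markers were high on every array (log2 of the summed level 16.22 to 16.45), and 1 of these 9 genes passed the test, the myosin light chain *Myl2*, which fell by 0.42 in cKO against control hearts averaged over surgery (limma, adjusted p = 0.000232). *Zbtb17* itself was not lower in the cKO groups, with 6.50 ± 0.02 in cKO TAC and 6.52 ± 0.07 in cKO sham hearts, against 6.45 ± 0.11 in control TAC and 6.36 ± 0.13 in control sham hearts (SD, n = 4 each). The deleted part of the gene is not stated, so this probe set could not check the genotypes, and cKO and control are used as the labels give them. Some arrays stood apart. *Myl7*, an atrial myosin light chain, was above 6 on 6 arrays, namely cKO TAC replicates 1 and 2, cKO sham replicate 2, control TAC replicates 1 and 2 and control sham replicate 3, with a highest value of 8.83 in cKO TAC replicate 2. *Atf3*, a stress-induced transcription factor, was above 8 on 3 sham arrays, cKO sham replicate 1 and control sham replicates 3 and 4. Differences that these arrays moved most are also given without them. In whole heart tissue, fewer cells of a type and less RNA per cell cannot be told apart.

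The members differed widely in how much they varied. Between the lowest and the highest of the 16 arrays, *Xirp1* spanned 2.70 log2 units (6.50-fold), *Fhl1* 1.68 (3.20-fold), *Xirp2* 1.40, *Enah* 1.36, *Ankrd1* 1.02, *Nrap* 0.90 and *Fhl2* 0.60 (1.52-fold). Within groups, the pooled SD was 0.732 for *Xirp1*, above that of 99.3% of the 21333 probe sets tested, 0.350 for *Xirp2*, 0.323 for *Fhl1*, 0.312 for *Ankrd1*, 0.309 for *Enah* and 0.231 for *Nrap*. *Fhl2* was the exception, with 0.134 against a median of 0.155 over all probe sets. The other 6 thus varied more between mice of one group than the median probe set did, as the plot of all values by array shows.

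**Figure D1:**
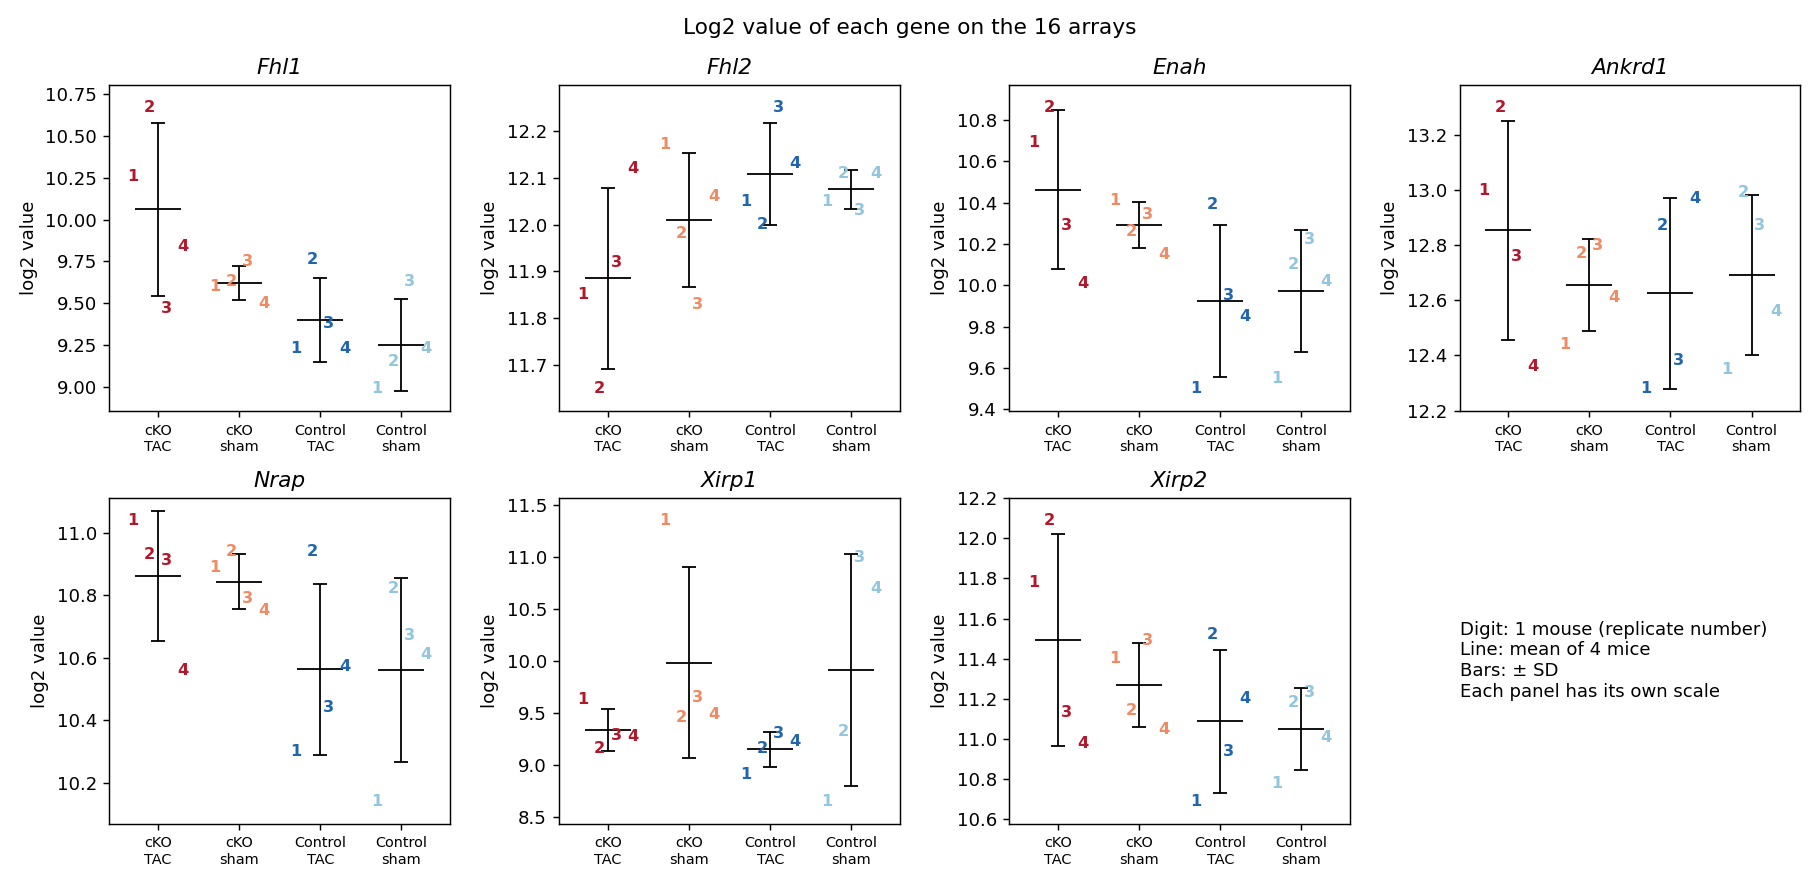
Log2 value of each of the 7 genes (vertical axis, each panel with its own scale) in cKO TAC, cKO sham, control TAC and control sham hearts. Each digit is 1 mouse, given by its replicate number, the line is the mean of 4 mice and the bars are ± SD. Replicates 1 and 2 of cKO TAC stand at the top of Fhl1, Enah, Ankrd1 and Xirp2, while Xirp1 has 3 high sham hearts, and the groups overlap in every panel, apart from Xirp1 in cKO sham (9.45 to 11.35) and control TAC (8.91 to 9.30).

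*Fhl1* had log2 values of 10.26, 10.67, 9.47 and 9.84 in cKO TAC hearts, and of 9.60, 9.63, 9.75 and 9.50 in cKO sham hearts. It had 9.23, 9.76, 9.38 and 9.23 in control TAC hearts, and 8.99, 9.15, 9.63 and 9.23 in control sham hearts. The order of the group means was cKO TAC (10.06 ± 0.52), cKO sham (9.62 ± 0.10), control TAC (9.40 ± 0.25) and control sham (9.25 ± 0.27; SD, n = 4 each). Neighbouring groups in that order overlapped. Of the 8 control hearts, 6 lay below the lowest of the 8 cKO hearts.

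*Fhl2*, the close relative of *Fhl1*, ran the other way and in a narrow range. It had 11.85, 11.65, 11.92 and 12.12 in cKO TAC hearts and 12.17, 11.98, 11.83 and 12.06 in cKO sham hearts. Control TAC hearts had 12.05, 12.00, 12.25 and 12.13, and control sham hearts 12.05, 12.11, 12.03 and 12.11. The lowest of all 16 values, 11.65, was in cKO TAC replicate 2, the array with the highest *Fhl1*. Group means were 11.88 ± 0.19 in cKO TAC, 12.01 ± 0.14 in cKO sham, 12.11 ± 0.11 in control TAC and 12.08 ± 0.04 in control sham hearts (SD, n = 4 each), and all overlapped.

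*Ankrd1*, the load-induced titin partner, showed no order by treatment. Its values were 13.00, 13.30, 12.76 and 12.36 in cKO TAC hearts and 12.44, 12.77, 12.80 and 12.61 in cKO sham hearts. In control hearts they were 12.28, 12.87, 12.38 and 12.97 after TAC, and 12.35, 12.99, 12.87 and 12.56 after sham. The highest values were those of cKO TAC replicates 2 and 1, and the lowest that of control TAC replicate 1. The mean ± SD of 4 mice was 12.86 ± 0.40 for cKO TAC, 12.66 ± 0.17 for cKO sham, 12.62 ± 0.35 for control TAC and 12.69 ± 0.29 for control sham, and no 2 means were farther apart than the SD of the cKO TAC hearts.

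Among the genes of the intercalated disc, *Enah* had 10.69, 10.86, 10.29 and 10.01 in cKO TAC hearts and 10.41, 10.26, 10.34 and 10.15 in cKO sham hearts. It had 9.50, 10.39, 9.95 and 9.85 in control TAC hearts and 9.55, 10.10, 10.22 and 10.02 in control sham hearts. The 2 cKO groups (10.46 ± 0.38 and 10.29 ± 0.11 for TAC and sham) stood above the 2 control groups (9.92 ± 0.37 and 9.97 ± 0.29 for TAC and sham; SD, n = 4 each), with overlap at each step. *Nrap*, a scaffold at the ends of myofibrils, had 11.04, 10.93, 10.91 and 10.56 in cKO TAC hearts and 10.89, 10.94, 10.79 and 10.75 in cKO sham hearts. Control TAC hearts had 10.30, 10.94, 10.44 and 10.57 and control sham hearts 10.14, 10.82, 10.67 and 10.61. It had the same order of genotypes, with means of 10.86 ± 0.21 and 10.84 ± 0.09 in cKO TAC and sham hearts, and 10.56 ± 0.27 and 10.56 ± 0.29 in control TAC and sham hearts.

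*Xirp2* had 11.78, 12.09, 11.13 and 10.98 in cKO TAC hearts and 11.40, 11.14, 11.49 and 11.05 in cKO sham hearts. Control TAC hearts had 10.69, 11.52, 10.94 and 11.20, and control sham hearts 10.78, 11.18, 11.23 and 11.01. Its means were 11.50 ± 0.53, 11.27 ± 0.21, 11.09 ± 0.36 and 11.05 ± 0.20 in cKO TAC, cKO sham, control TAC and control sham hearts (SD, n = 4 each), the same order of groups as for *Fhl1*. Its relative *Xirp1* had another order of groups. It had 9.63, 9.16, 9.28 and 9.27 in cKO TAC hearts and 11.35, 9.45, 9.65 and 9.48 in cKO sham hearts. It had 8.91, 9.16, 9.30 and 9.22 in control TAC hearts and 8.65, 9.32, 10.99 and 10.69 in control sham hearts. The 3 highest arrays, at 10.69 to 11.35, were all sham hearts, and the other 13 lay between 8.65 and 9.65.

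The first comparison asks what 4 weeks of pressure load did to these genes in cKO hearts. *Fhl1* was higher by 0.44 ± 0.21 on the log2 scale in cKO TAC against cKO sham hearts (SE, 1.36-fold, 95% interval 0.00 to 0.88), *Xirp2* by 0.22 ± 0.22, *Ankrd1* by 0.20 ± 0.20 and *Enah* by 0.17 ± 0.20. *Nrap* was at 0.02 ± 0.15, *Fhl2* at -0.12 ± 0.09 and *Xirp1* at -0.65 ± 0.46. With limma, 0 of 7 passed an adjusted p under 0.05 over all probe sets, where 0.0% of the 21333 did, and the smallest adjusted p of the 7 was 0.731. At an unadjusted p under 0.05, 1 of 7 passed (*Fhl1*), beside 6.78% of all probe sets. None of the 7 separated the groups without overlap, as 2.28% of probe sets did upward and 2.08% downward. The 2 highest *Fhl1* values of all arrays, 10.26 and 10.67, were those of cKO TAC replicates 1 and 2. Both are among the 6 arrays with *Myl7* above 6, and the part of *Myl7* in the difference was not tested. Without those 6 arrays *Fhl1* was at 0.04, with 2 cKO TAC and 3 cKO sham hearts left. *Enah* (-0.15), *Ankrd1* (-0.06), *Nrap* (-0.07) and *Xirp2* (-0.26) then took the opposite sign. *Xirp1* was at -0.19 once the 3 sham hearts of high *Atf3*, 1 of them cKO, were left out. Those 3 hearts also had the 3 highest *Xirp1* values, so that fit removes its own extremes and is no independent check.

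In control hearts 6 of the 7 members lay between -0.07 and 0.15 for TAC against sham. *Fhl1* was at 0.15 ± 0.21 for TAC against sham (SE, 95% interval -0.29 to 0.59), *Fhl2* at 0.03 ± 0.09, *Xirp2* at 0.04 ± 0.22 and *Nrap* at 0.00 ± 0.15. *Enah* was at -0.05 ± 0.20 and *Ankrd1* at -0.07 ± 0.20 (95% interval -0.48 to 0.35). For *Ankrd1*, known as load-induced, the interval runs from 0.71-fold to 1.27-fold. *Xirp1* was at -0.76 ± 0.46 (95% interval -1.74 to 0.21), and the 2 highest control sham hearts were among the arrays with *Atf3* above 8. Without the 3 such arrays it was at 0.16, and *Fhl1* was at 0.33. By limma, 0 of 7 passed an adjusted p under 0.05 (0.0% of probe sets) and 0 of 7 an unadjusted p under 0.05 (8.32% of probe sets), with a smallest adjusted p of 0.675.

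Averaged over genotype, TAC against sham gave *Fhl1* at 0.30 ± 0.15 and *Xirp1* at -0.71 ± 0.32 (SE, 0.61-fold). Neither passed (limma, adjusted p = 0.429 and 0.401), and the other 5 members lay between -0.05 and 0.13. *Xirp1* was the 1 member with an unadjusted p under 0.05, beside 12.0% of probe sets, and 0 of 7 passed the adjusted test (0.0% of probe sets). Without the 3 sham arrays with *Atf3* above 8, *Xirp1* was at -0.01. The response to TAC did not differ detectably between genotypes in any member. The interaction ranged from -0.16 ± 0.13 for *Fhl2* to 0.29 ± 0.29 for *Fhl1* (SE), each with an adjusted p of 1.0 (limma), and 0 of 7 had an unadjusted p under 0.05, beside 3.70% of probe sets.

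The second question is how cKO hearts differed from control hearts under each surgery, and the plot of fold changes sets both beside the response to load. In TAC hearts, *Fhl1* was 0.66 ± 0.21 higher in cKO than in control (SE, 1.58-fold, 95% interval 0.22 to 1.10) and *Enah* 0.54 ± 0.20 higher (1.45-fold, 95% interval 0.12 to 0.96). *Xirp2* was at 0.41 ± 0.22, *Nrap* at 0.30 ± 0.15, *Ankrd1* at 0.23 ± 0.20 and *Xirp1* at 0.19 ± 0.46, while *Fhl2* was at -0.22 ± 0.09 (95% interval -0.41 to -0.03). By limma 0 of 7 passed (0.00469% of probe sets did, which is 1 of 21333), with adjusted p = 0.563 for *Fhl1*, 0.569 for *Enah* and 0.626 for *Fhl2*. Those 3 had an unadjusted p under 0.05, beside 7.58% of probe sets. Atrial markers were positive in the same comparison in 7 of 7 genes past the filter, with a median of 0.43 (*Bmp10* was below it). The log2 of their summed level was 12.06 to 13.94 in cKO TAC hearts and 11.27 to 13.09 in control TAC hearts. Without the 6 arrays with *Myl7* above 6, which leaves 2 mice in each group, *Fhl1* was at 0.35 and *Enah* at 0.25, and *Ankrd1* (-0.11) and *Xirp2* (-0.02) took the opposite sign.

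**Figure D2:**
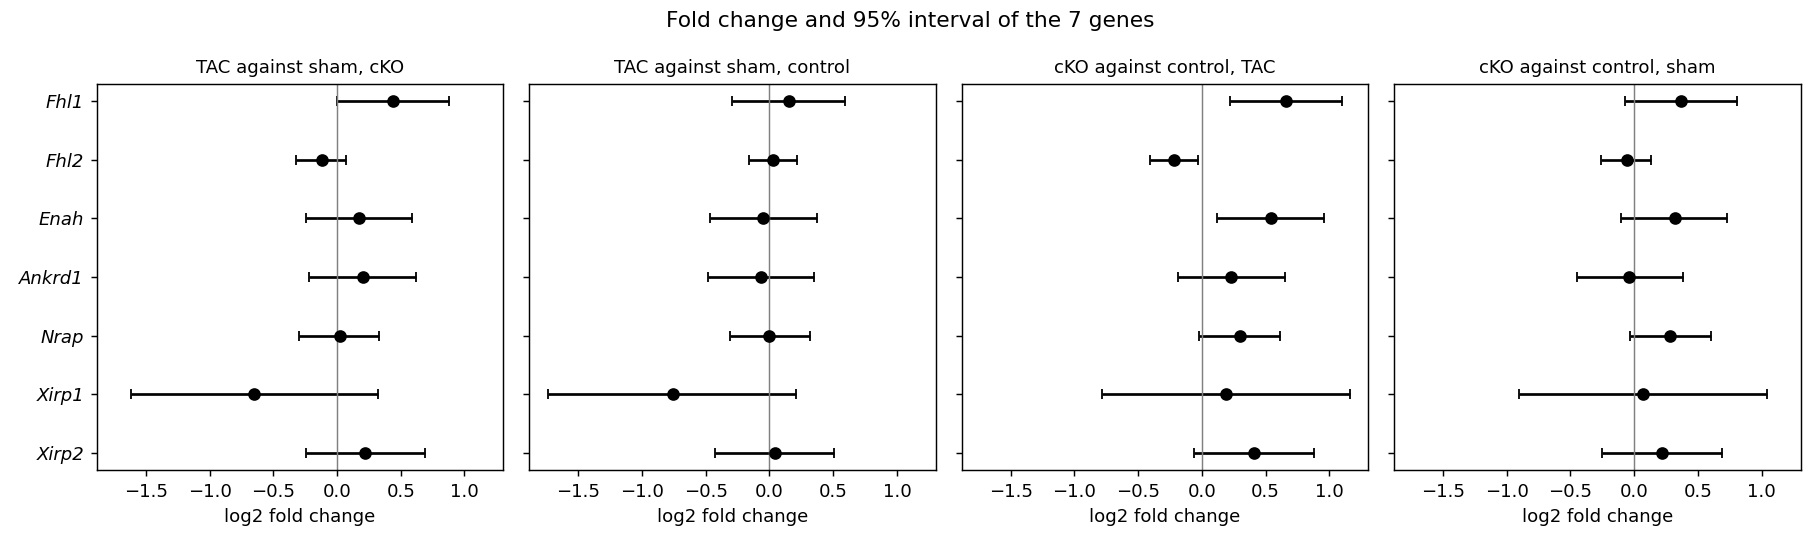
Log2 fold change (horizontal axis) of the 7 genes with its 95% interval from limma, for TAC against sham in cKO and in control hearts, and for cKO against control after TAC and after sham. The intervals of Fhl1 and Enah lie above 0 and that of Fhl2 below 0 in cKO against control after TAC, before adjustment, and Xirp1 has the widest intervals.

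In sham hearts the genotype difference had the same sign as in TAC hearts for 6 of the 7 genes, all but *Ankrd1*. *Fhl1* was at 0.37 ± 0.21 in cKO against control, *Enah* at 0.32 ± 0.20, *Nrap* at 0.28 ± 0.15 and *Xirp2* at 0.22 ± 0.22, with *Fhl2* at -0.06 ± 0.09, *Ankrd1* at -0.04 ± 0.20 and *Xirp1* at 0.07 ± 0.46 (SE). With limma 0 of 7 passed an adjusted p under 0.05 (0.0234% of probe sets), and 0 of 7 an unadjusted one (10.7% of probe sets). The smallest adjusted p was 0.512, for *Nrap*. *Xirp1* was at -0.39 without cKO sham replicate 1 and at 0.43 without control sham replicate 3, so its sign rested on single hearts. Without the 3 sham arrays with *Atf3* above 8 it was at 0.54 ± 0.19 (SE), with 3 cKO sham and 2 control sham hearts left, which also did not pass. Those 3 arrays were also the 3 of highest *Xirp1*, so leaving them out cuts its spread, and the smaller SE is no independent gain in precision.

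Averaged over surgery, 8 cKO hearts against 8 control hearts gave the clearest differences of these genes, though none passed. *Fhl1* was 0.51 ± 0.15 higher (SE, 1.43-fold, 95% interval 0.21 to 0.82; limma, adjusted p = 0.172) and *Enah* 0.43 ± 0.14 higher (1.35-fold, 95% interval 0.13 to 0.72; limma, adjusted p = 0.197). *Nrap* was at 0.29 ± 0.10 (1.22-fold, 95% interval 0.07 to 0.51), *Xirp2* at 0.31 ± 0.16 (95% interval -0.02 to 0.64) and *Fhl2* at -0.14 ± 0.06 (0.91-fold, 95% interval -0.28 to -0.01). *Ankrd1* was at 0.10 ± 0.14 and *Xirp1* at 0.13 ± 0.32. Leaving out the 3 sham hearts of high *Atf3* put *Xirp1* at 0.36 ± 0.12, which did not pass either. Those hearts also had its 3 highest values, so the smaller SE follows from their removal. Of the 7, 4 had an unadjusted p under 0.05 beside 14.9% of all probe sets: *Fhl1*, *Enah* and *Nrap* on the positive side, where 8.24% of probe sets stood, and *Fhl2* on the negative side, where 6.68% stood. Because the 7 were chosen with earlier results of these data known, these shares are a description and no test of the set. None of the 7 separated the genotypes without overlap, as 0.0469% of probe sets did upward and 0.0563% downward. By limma 0 of 7 passed the adjusted test, which 4 probe sets, 0.0188%, passed. *Fhl1* stood at rank 341 of 21333 by p and *Enah* at rank 772. Within both surgeries *Fhl1*, *Enah*, *Nrap* and *Xirp2* were positive and *Fhl2* negative. In the average over surgery these 5 signs held in each setting tried, including without the 6 arrays of high *Myl7*, where *Fhl1* was at 0.42, *Enah* at 0.33, *Nrap* at 0.26, *Xirp2* at 0.15 and *Fhl2* at -0.12.

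Mice of one group differed in these genes together. After removal of the group means, *Enah* and *Xirp2* followed each other most closely over the 16 arrays (r = 0.92, rho = 0.95, permutation within groups, adjusted p = 0.00231 and 0.00189 over 21 pairs). *Nrap* followed *Enah* (r = 0.86, rho = 0.80), *Fhl1* followed *Xirp2* (r = 0.84, rho = 0.86) and *Enah* (r = 0.80, rho = 0.88), and *Ankrd1* followed *Xirp2* (r = 0.83, rho = 0.80), *Enah* (r = 0.76, rho = 0.72) and *Nrap* (r = 0.75, rho = 0.73). With *Nrap* and *Xirp2* (r = 0.71, rho = 0.71), these 7 further pairs had permutation adjusted p-values of 0.0112 to 0.0191 for r and of 0.00913 to 0.0345 for rho. Without the 2 arrays farthest from the median of the first gene, r of the 8 pairs was 0.62 to 0.88. *Fhl1* with *Ankrd1* (r = 0.59, rho = 0.59, permutation adjusted p = 0.113 and 0.0976) and with *Nrap* (r = 0.48, rho = 0.63, permutation adjusted p = 0.165 and 0.0550) did not pass. Grouping these 5 genes was a choice made after their values were seen.

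*Fhl2* had a negative r with all 5 over the 16 arrays. It was -0.64 with *Ankrd1*, -0.62 with *Xirp2*, -0.59 with *Fhl1*, -0.46 with *Enah* and -0.29 with *Nrap*. Only the first passed for r and did not pass for rho (rho = -0.53, permutation adjusted p = 0.0487 for r and 0.0976 for rho), and without the 2 arrays farthest from the median of *Fhl2*, cKO TAC replicates 2 and 4, it was -0.37. It also did not pass under quantile normalization (r = -0.56, permutation adjusted p = 0.104) or median centring (r = -0.57, permutation adjusted p = 0.114). In the 10 arrays with *Myl7* at most 6, r of *Fhl2* was -0.55 with *Ankrd1* and -0.34 with *Xirp2*, but -0.04 with *Nrap*, 0.01 with *Enah* and 0.19 with *Fhl1*.

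The arrays at either end of this joint variation also stood apart in other genes. cKO TAC replicate 2 was the highest of 16 in *Fhl1*, *Enah*, *Ankrd1* and *Xirp2*, the lowest in *Fhl2*, and the highest in *Myl7* and in the sum of the atrial markers (13.94). It was also the highest in the sums of fibroblast (14.05) and macrophage markers (11.99), and the lowest in those of ventricular (16.22) and skeletal muscle markers (12.57). cKO TAC replicate 1 was the highest in *Nrap* and next to the highest in the other 4. At the other end stood 2 control hearts. Control sham replicate 1 was the lowest of 16 in *Fhl1*, *Nrap* and *Myl7*, so it was among the 10 arrays with *Myl7* at most 6. It was next to the lowest in *Enah*, *Ankrd1*, *Xirp2* and the sum of the atrial markers. Control TAC replicate 1 was the lowest of 16 in *Enah*, *Ankrd1*, *Xirp2* and the sum of the atrial markers (11.27). That sum was low through *Nppa*, the atrial natriuretic peptide gene, at 9.86 against 12.33 in cKO TAC replicate 1, while *Myl7* was at 6.07 on both arrays and *Myl4*, another atrial light chain, at 9.20 and 9.17. Skeletal actin, *Acta1*, was the highest of 16 in cKO TAC replicate 1 (12.65), next in cKO TAC replicate 2 (12.57) and the lowest in control TAC replicate 1 (9.31). The part of these genes and cell types in the joint variation was not tested. In the 10 arrays with *Myl7* at most 6, *Enah* and *Nrap* were still related at r = 0.91, and *Enah* and *Xirp2*, *Nrap* and *Xirp2*, *Ankrd1* and *Nrap*, and *Ankrd1* and *Xirp2* at 0.71 to 0.73. *Enah* and *Ankrd1* had r = 0.48. *Fhl1* had lower values, with r = 0.22 to *Enah*, 0.22 to *Xirp2*, -0.02 to *Nrap* and -0.18 to *Ankrd1*. With those 10 arrays 0 of 21 pairs passed, in a test that has only 144 arrangements of the arrays within groups.

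**Figure D3:**
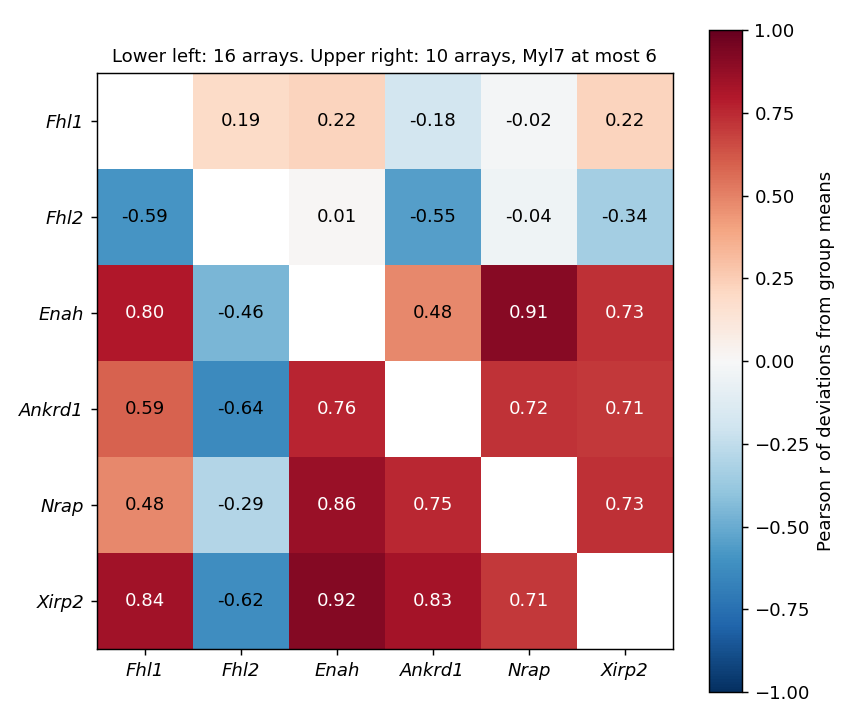
Pearson r between 6 of the genes, computed on deviations from the group means. The lower left triangle uses all 16 arrays and the upper right triangle the 10 arrays with Myl7 at most 6, and Xirp1 is left out because its values form 2 clusters. The row of Fhl1 is red below the diagonal for Enah and Xirp2 (0.80 and 0.84) and pale above it (0.22 and 0.22), while Enah with Nrap is 0.86 below and 0.91 above.

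*Xirp1* was set apart by 3 arrays. Those with *Xirp1* at 10.69 to 11.35 were the same 3 that had *Atf3* at 8.45 to 10.18, and on the other 13 *Atf3* was at 6.13 to 7.26. Because the arrays fall into 2 clusters, no r of *Xirp1* over all 16 is given. On the 13 arrays below the gap, *Xirp1* and *Atf3* had r = 0.28 and rho = 0.29. After removal of group means on these 13, *Xirp1* had r = 0.62 with *Nrap*, 0.50 with *Enah*, 0.43 with *Ankrd1*, 0.38 with *Xirp2*, 0.17 with *Fhl2* and 0.15 with *Fhl1*. In *Xirp2* the 3 high hearts were at 11.40, 11.23 and 11.01, which are ranks 5, 6 and 12 of 16 from the highest. For markers of stress and immediate early response, the log2 of the summed level reached 10.48 in cKO TAC and 10.86 in control TAC hearts, against 11.63 in cKO sham and 11.82 in control sham hearts. Their part in the level of *Xirp1* was not tested.

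**Figure D4:**
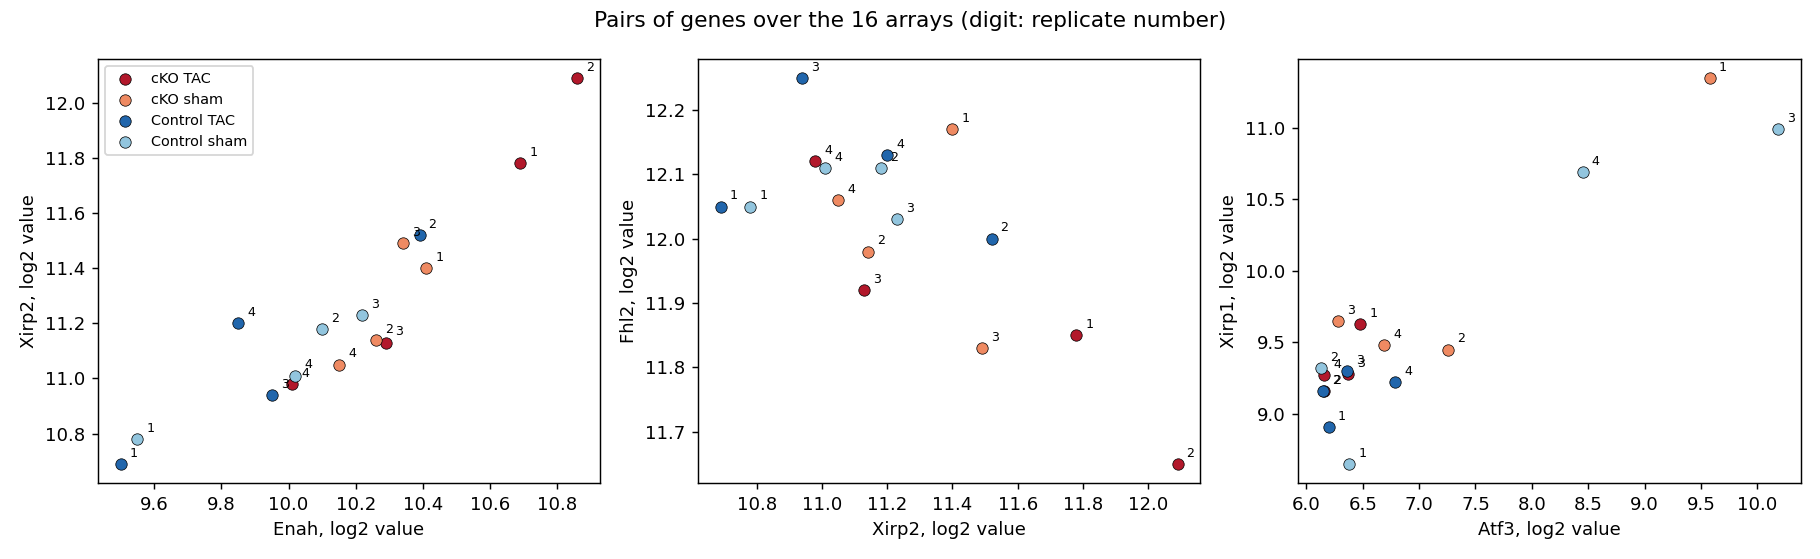
Log2 values of gene pairs over the 16 arrays, coloured by group, each digit giving the replicate number of a mouse. On the left Xirp2 tends to be high where Enah is high, in the middle Fhl2 tends to be low where Xirp2 is high, with cKO TAC replicate 2 at the far end, and on the right the 3 sham hearts with Atf3 above 8 are those with Xirp1 above 10.

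The genes most like each member were taken by Pearson r over the 16 arrays among 13669 other genes, as a description. Nearest to *Enah* were *Alpk3* (r = 0.94, and 0.93 after removal of group means), *Map4* (0.94 and 0.90) and *Kif5b* (0.93 and 0.92). Nearest to *Nrap* were *Sorbs2* (0.94 and 0.92), *Enah* itself (0.90 and 0.86) and *Map4* (0.89 and 0.88), and nearest to *Xirp2* were *Enah* (0.92 and 0.92), *Alpk3* (0.91 and 0.88) and *Tgfb2* (0.90 and 0.90). Of the disc genes, *Enah*, *Nrap* and *Xirp2* thus named one another or shared a nearest gene. *Nrap* stood only at rank 92 in the order of *Xirp2*, and *Xirp2* at rank 127 in that of *Nrap*. In the order of *Xirp1*, also a disc gene, *Enah* stood at rank 2520, *Nrap* at 2583 and *Xirp2* at 4235. That order used all 16 arrays, with the 3 of high *Xirp1* among them, so it does not show *Xirp1* as unrelated to these genes. On the 13 arrays below its gap, r after removal of group means was 0.62 with *Nrap*, 0.50 with *Enah* and 0.38 with *Xirp2*. *Fhl1* was closest to *Tmem184c* (0.92 and 0.85), *Pdlim5* (0.88 and 0.86) and *Fzd7* (0.88 and 0.78), with *Xirp2* at rank 6 and *Enah* at rank 8. *Ankrd1* was closest to *Itga9* (0.87 and 0.87), *Itgb5* (0.85 and 0.89) and *Hivep3* (0.84 and 0.86), with *Xirp2* at rank 8. *Fhl2* was closest to *Atad3a* (0.86), *Prkce* (0.85) and *Ins2* (0.83), and *Fhl1* stood at rank 13596 of 13669 in its order. Over all 16 arrays, with the 3 high ones included, *Xirp1* was closest to the chaperone genes *Dnajb4*, *Hsp90aa1* and *Hspb1*. On the 13 arrays below its gap these had r = 0.71, 0.78 and 0.70 (rho = 0.55, 0.67 and 0.61).

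Other genes of the same structures were examined from 5 lists, and none of their members passed limma's adjusted test in any comparison. Of 25 Z-disc and titin partners, 24 were measured and 20 of these were positive in cKO against control averaged over surgery, with a median of 0.18 beside 0.00 over all probe sets. Of the 24, 10 had an unadjusted p under 0.05, all positive, beside 8.24% of all probe sets on that side. The lists, too, were chosen with earlier results of these data known, so their counts are a description. Those of smallest p, named after their values were seen, were *Pdlim5* (0.31 ± 0.08, adjusted p = 0.137 by limma), the Z-disc protein gene *Myot* (0.71 ± 0.20), *Synpo2* (0.29 ± 0.09) and titin itself, *Ttn* (0.28 ± 0.09). Of 28 genes of the intercalated disc and costamere, 27 were measured and 21 were positive (median 0.08), with *Dmd*, encoding dystrophin, at 0.31 ± 0.09, *Sorbs2* at 0.28 ± 0.09 and *Des*, encoding desmin, at 0.19 ± 0.07. Of the 27, 7 were positive and 1 negative at an unadjusted p under 0.05, beside 8.24% and 6.68% of all probe sets. Both lists leaned in the same direction as *Fhl1*, *Enah*, *Nrap* and *Xirp2*, also under quantile normalization (23 of 24 and 20 of 27 positive) and median centring (23 of 24 and 23 of 27). Relatives of the 7 genes by family did not lean that way, with 2 of 9 positive and a median of -0.04 (4 of 9 under quantile normalization or median centring), and *Fhl4* and *Fhl5* were below the filter. SRF and actin-responsive genes were positive in 11 of 23 (median -0.01). Hypertrophy markers were positive in 9 of 9 (median 0.29), and in 8 of 9 under quantile normalization. Among them skeletal actin, *Acta1*, was at 0.72 ± 0.41 and *Myh6* at 0.08 ± 0.08. The counts take each sign as it stands, with no direction of hypertrophy set per gene.

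In TAC against sham averaged over genotype, the disc and costamere list leaned downward, with 17 of 27 negative and a median of -0.05. *Dsc2* (-0.36 ± 0.13) and *Ctnna3* (-0.37 ± 0.13) of the cell junctions, *Pkp2* (-0.16 ± 0.06) and the gap junction gene *Gja1* (-0.22 ± 0.08) had the smallest p, with adjusted p-values of 0.295 to 0.312 by limma. Members of the 7 at the same disc, *Enah*, *Nrap* and *Xirp2*, were at 0.06 ± 0.14, 0.01 ± 0.10 and 0.13 ± 0.16. *Xirp1*, also a disc gene, was at -0.71 ± 0.32, and at -0.01 with the 3 sham hearts of high *Atf3* left out, which also had its highest values. Z-disc partners had 14 of 24 negative, with *Ttn* at -0.27 ± 0.09 and *Flnc* at -0.24 ± 0.15. *Casq2* of that list, of smaller p than *Flnc*, was at 0.14 ± 0.08. Among relatives, the nebulin-like gene *Nebl* was at -0.31 ± 0.11 (adjusted p = 0.281 by limma). SRF and actin-responsive genes had 13 of 23 negative, with *Fos* at -0.29 ± 0.10 and *Myocd*, the cardiac SRF cofactor, at -0.27 ± 0.10. *Mrtfb*, next by p in that list, was at 0.20 ± 0.07. Hypertrophy markers had 4 of 9 positive, with the matrix gene *Postn* at 0.99 ± 0.45 and *Acta1* at 0.87 ± 0.41. *Myh6* (-0.12 ± 0.08) and *Atp2a2* (-0.08 ± 0.05) were among the negative ones. Markers of other cells leaned with TAC as well, positive in 10 of 10 fibroblast genes (median 0.34), 8 of 8 macrophage genes (median 0.48), 8 of 8 endothelial genes (median 0.17) and 6 of 7 atrial genes (median 0.18), and negative in 9 of 10 stress genes (median -0.33), none past the adjusted test. Between genotypes, averaged over surgery, atrial markers were positive in 7 of 7 (median 0.29) and fibroblast markers in 10 of 10 (median 0.11). Endothelial markers were negative in 8 of 8 (median -0.20), macrophage markers in 7 of 8 (median -0.09) and stress genes in 9 of 10 (median -0.17). Their part in the values of the 7 genes was not tested.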

How the data were processed

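Total RNA of 16 mouse hearts was labelled with biotin and hybridised to Affymetrix arrays, per the labels' protocols. The deposited table holds log2 values that the authors made for 35556 probe sets; the base was read from the values, and the submitters' processing notes name MAS5 without a version. How these values were normalized could not be settled. Groups came from the sample titles and the treatment tag, because the treatment protocol field names TAC for every sample, also for those titled sham. The members and the gene lists were chosen with earlier results of these data known. Symbols came from the platform annotation and locations from RefSeq's GRCm38.p6 tables.

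Tests covered the 21333 probe sets whose mean over the arrays exceeded 4.37, the 40th percentile. They used limma 3.58.1 in R 4.3.3 with 4 group means (12 residual degrees of freedom) and trended, moderated variances; p-values were two-sided and adjusted by Benjamini-Hochberg over all 21333, with a threshold of 0.05. The number of arrays limits the precision. Intervals are 95% intervals of the fit before adjustment. Relations between members used deviations from group means, with 100000 permutations within groups and Benjamini-Hochberg over 21 pairs. The genes named were the 7 members, the 3 genes most like each, and up to 4 genes of smallest p per list in TAC against sham averaged over genotype; list genes named for the genotype comparison were picked with their values in view. The alternatives varied the scaling (quantile or median), the filter (none, or the 60th percentile), the variance model (untrended, weighted arrays, a fit to the compared groups alone, a block for the replicate number), the summary of probe sets (their mean per gene) and the arrays used (1 omitted at a time). Fits without the 6 arrays with Myl7 above 6 or the 3 with Atf3 above 8, and every alternative for the relations between members, were added after seeing the data. The limma script was tested on simulated data. The labels give no batch, and a pairing of mice by replicate number was not shown.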

Additional observations from a re-analysis of the deposited data

Results flagged for a closer look

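Of the 28 groups formed by the 7 genes and 4 groups of mice, 1 held a heart far from the others. In cKO sham hearts *Xirp1* was at 11.35 in replicate 1, and the gap to the next heart, at 9.65, was 0.895 of the range of the group, above Dixon's critical value at the 95% level for a group of this size. Chance alone sets about 1 in 20 such groups apart. The same array had *Atf3* at 9.58, the highest of the cKO sham hearts. With it left out, *Xirp1* was at -0.39 in cKO against control sham hearts, against 0.07 with it.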

How the results depend on the processing

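None of the 7 genes passed in any of the 27 settings, and the smallest adjusted p over the 49 member results was 0.109 (limma, *Fhl1* in cKO against control averaged over surgery, without cKO TAC replicate 3). Of 1302 alternative values, 83 changed sign, in 27 of the 49 results; for none of them was the cause tested. In the average over surgery *Fhl1* (0.41 to 0.61), *Enah* (0.33 to 0.51), *Nrap* (0.22 to 0.35), *Xirp2* (0.15 to 0.40) and *Fhl2* (-0.18 to -0.10) kept their sign throughout. The spread between mice limits what can be seen, with single-comparison standard errors of 0.20 to 0.46 for all but *Fhl2* and *Nrap*.

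Without the 6 arrays with *Myl7* above 6, these log2 fold changes took the opposite sign. In cKO TAC against cKO sham hearts *Enah* was at -0.15, *Ankrd1* at -0.057, *Nrap* at -0.075 and *Xirp2* at -0.26. In control TAC against control sham hearts *Enah* was at 0.01, *Ankrd1* at 0.042 and *Nrap* at -0.018. In cKO TAC against control TAC hearts *Ankrd1* was at -0.115 and *Xirp2* at -0.015. For TAC averaged over genotype *Fhl2* was at 0.05, *Enah* at -0.07, *Ankrd1* at -0.0075, *Nrap* at -0.047 and *Xirp2* at -0.089, and for genotype averaged over surgery *Ankrd1* was at -0.066. For the interaction *Fhl1* was at -0.14, *Enah* at -0.16, *Ankrd1* at -0.098, *Nrap* at -0.057, *Xirp1* at -0.59 and *Xirp2* at -0.34. The relations that turned were r of *Fhl1* with *Fhl2* (0.19), *Ankrd1* (-0.18) and *Nrap* (-0.015) and of *Fhl2* with *Enah* (0.0086), and 0 of 21 pairs passed against 9 with all arrays (6 to 10 with any 1 array left out). With 1 array left out, *Fhl2* with *Ankrd1* failed to pass in 12 of 16 cases and *Enah* with *Ankrd1* in 4. Without the 3 arrays with *Atf3* above 8, control TAC against control sham gave *Enah* 0.0975 and *Xirp1* 0.16, cKO sham against control sham gave *Ankrd1* 0.057, and the interaction was -0.049 for *Nrap* and -0.35 for *Xirp1*.

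Under quantile normalization *Nrap* was at -0.0245 and *Xirp2* at -0.0036 in control TAC against sham, and *Nrap* at -0.0085 for TAC averaged over genotype. Under median centring *Ankrd1* was at 0.021 in cKO against control sham and *Nrap* at -0.031 in the interaction. With array weights *Nrap* was at -0.0084 in cKO TAC against sham, at -0.041 in control TAC against sham and at -0.025 for TAC averaged over genotype, *Xirp2* at -0.0039 in control TAC against sham and *Enah* at -0.017 for TAC averaged over genotype. *Xirp1* was then at -0.41 in cKO against control sham and -0.11 averaged over surgery.

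With each array left out in turn, the signs that turned had these ranges. In cKO TAC against cKO sham *Nrap* ran from -0.0425 to 0.12. In control TAC against sham *Fhl2* ran from -0.015 to 0.068, *Enah* from -0.21 to 0.091, *Ankrd1* from -0.18 to 0.0475, *Nrap* from -0.14 to 0.09 and *Xirp2* from -0.11 to 0.17. For TAC averaged over genotype *Enah* ran from -0.017 to 0.14, *Ankrd1* from -0.0079 to 0.15 and *Nrap* from -0.06 to 0.06. In cKO against control sham *Ankrd1* ran from -0.15 to 0.062 and *Xirp1* from -0.39 to 0.43, and averaged over surgery *Xirp1* from -0.099 to 0.31. In the interaction *Nrap* ran from -0.0725 to 0.155, *Xirp1* from -0.24 to 0.57 and *Xirp2* from -0.011 to 0.36.

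The number of probe sets called by limma in the comparisons cKO TAC against cKO sham, control TAC against sham, cKO TAC against control TAC, cKO against control sham, TAC averaged and genotype averaged was 0, 0, 1, 5, 0 and 4. With each array left out these ran over 0 to 1, 0 to 2, 1 to 2, 0 to 27, 0 to 1 and 1 to 81, the highest without control sham replicate 4. The cKO against control sham count was 0 with median centring, the 60th percentile filter, the mean of probe sets, or without the 6 or the 3 arrays, 1 with array weights, and 3 without the trend or with only the groups compared. The genotype count was 8 with quantile normalization or the mean of probe sets, 9 with the 60th percentile filter, 2 with median centring or no trend, and 1 with no filter or without the 6 arrays. The cKO TAC against control TAC count was 2 with quantile normalization or array weights and 0 with no trend, only the groups compared, or without the 6 or the 3 arrays. Control TAC against sham gave 5 with no filter and 1 with only the groups compared or without the 3 arrays, cKO TAC against sham 1 with only the groups compared, and TAC averaged 1 with no filter.

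A pairing of mice by replicate number was not shown: of 24 same-numbered pairs, 6 correlated above 0.1 (median -0.032, highest 0.193). Such correlations cannot exclude a pairing. With the number as a replicate block 0 members passed, *Fhl1* averaged over surgery had an adjusted p of 0.194 by limma, and the counts of calls were 0 for cKO against control sham and 2 for the genotype average.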
